A study of Mus musculus with 6 samples.

Results

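Integrins are cell surface receptors that hold T cells to other cells and to matrix, and each is a pair of an alpha and a beta chain made by separate genes. The genes described here are 8 integrin chains of T cells other than the CD103 chains Itgae and Itgb7: Itgb8, Itgav, Itgb3, Itgb1, Itga4, Itga6, Itgal and Itgb2. They were taken by gene name from a table of 55840 genes, and all 8 were found there. Their counts were compared between wild-type (WT) and Exon2KO mouse regulatory T cells (Tregs), suppressive CD4 T cells defined by the factor Foxp3. The labels call the second genotype Exon2KO and the series title writes it Foxp3 delta 2. Cells came from spleen and lymph nodes, with 3 libraries per genotype and no treatment named in the labels. Strain, age, sex and the way the cells were sorted are not given in the sources used here. Titles call the libraries biological replicates without saying whether each came from 1 mouse, so p-values measure the spread between these libraries. Libraries are named by genotype and by the number in their column name (2, 6 or 20).

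Integrins on a resting lymphocyte are mostly bent and inactive, and signals from inside the cell (the small GTPase Rap1, talin and kindlin) open them. Alpha L pairs with beta 2 to form LFA-1, which binds ICAM proteins. Alpha 4 pairs with beta 1 to bind VCAM-1, and alpha 6 with beta 1 to bind laminin. Alpha v pairs with several beta chains. With beta 8 it binds latent TGF-beta and releases the active cytokine, a function known for effector Tregs, and with beta 3 it binds vitronectin and other matrix proteins.

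The libraries held between 17998216 and 21003496 counts each. The libraries numbered 20 stood apart from the other 4 on the first principal component (33.2% of the variance), and the genotypes separated on the second (29.9%). Treg genes were high in all 6 libraries: Foxp3 had between 10934 and 16437 counts and Cd4 between 11666 and 15975. Counts summed over the whole Foxp3 gene do not check for the loss of an exon. The summed level of 8 T and Treg genes was 3834 to 4233 CPM (counts per 1000000 counts of the TMM-scaled library size) in WT and 3540 to 3915 CPM in Exon2KO, and 3 of the 8 fell (Il2ra, Ctla4 and Ikzf2). Of 14919 tested genes, 348 (2.33%) were called at an adjusted p under 0.05 by edgeR's quasi-likelihood test with Benjamini-Hochberg adjustment over all tested genes. With the column number as a replicate block, 1450 genes (9.72%) were called.

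Of the 8 chains, 1 rose (Itgb3), 1 fell (Itgb8) and 6 were not called. Called genes made up 2.33% of all tested genes, 0.757% higher and 1.58% lower. Itgb8 and Itgb3 encode alternative beta partners of alpha v, and they moved in opposite directions. With the replicate block, Itga4 and Itga6 were also called, both higher, so that 3 of the 8 rose and 1 fell. The block called 9.72% of all tested genes, 3.93% higher and 5.79% lower. DESeq2 called 3 of the 8 (4.47% of all tested genes), and edgeR without both libraries numbered 20 called 2 (2.43%). The CPM values of 5 of the 8 did not overlap between genotypes (Itgb8, Itgb3, Itga4, Itga6 and Itgb2). Among all tested genes this held for 17.7%. On the log2 scale the median change of these chains was 0.04, beside 0.0084 over all tested genes. All 8 passed the filter on low counts.

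**Figure D1:**
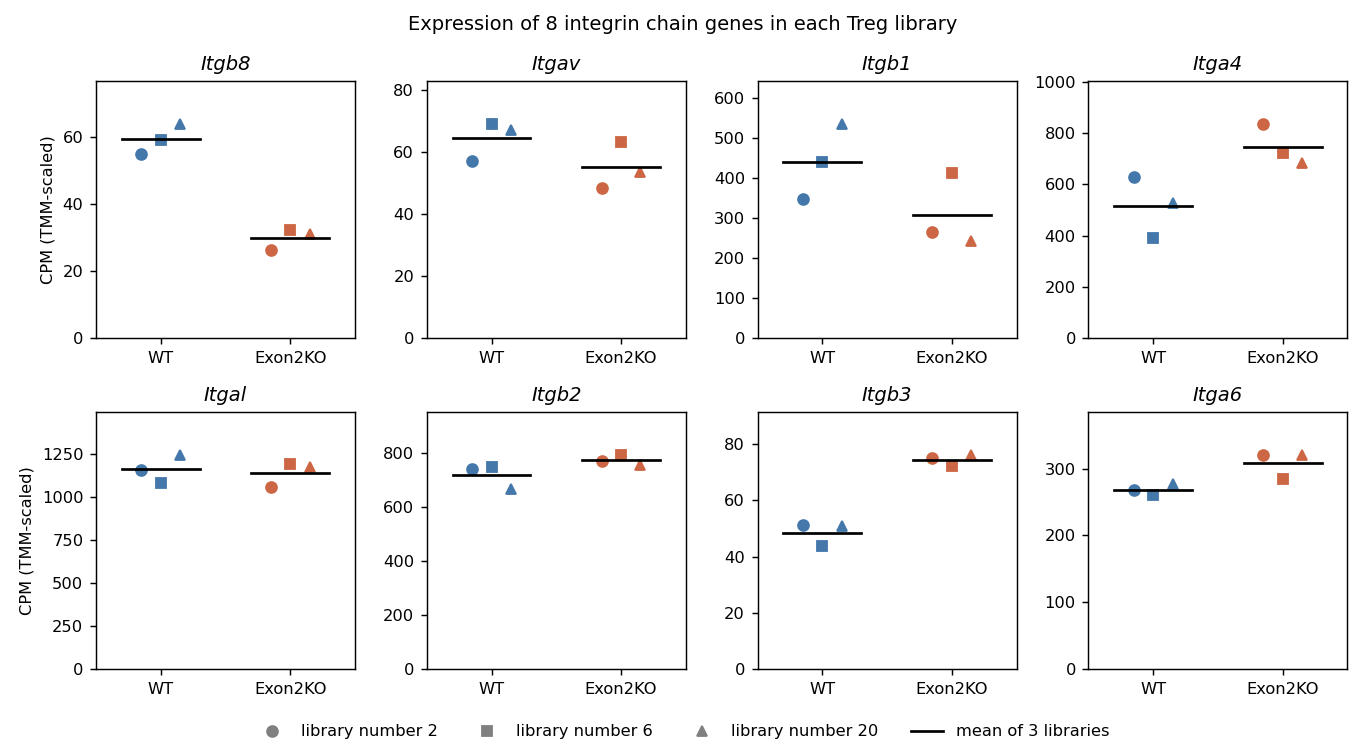
Expression of the 8 integrin chain genes in CPM (vertical axis, from 0) in each of 3 WT and 3 Exon2KO libraries. Symbols give the column number of the library and black lines the mean of 3 libraries. Itgb8 lies between 26.3 and 32.3 CPM in Exon2KO and at 55.1 CPM or higher in all WT libraries, Itgb3 lies higher in all Exon2KO libraries, and the values of Itgb1 overlap.

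Itgb8 (ENSMUSG00000025321, beta 8 chain) lies on the minus strand of chromosome 12 from 119158022 to 119238802 (GRCm38), and its only coding transcript in GENCODE release M21, Itgb8-201, has 14 exons. Its counts were 1027, 1073 and 1364 in the libraries WT 2, 6 and 20, against 474, 629 and 555 in Exon2KO 2, 6 and 20. Scaled to CPM, the WT libraries stood at 55.1, 59.1 and 64.0 and the Exon2KO libraries at 26.3, 32.3 and 31.2. Every Exon2KO library lay below every WT library, and the gap between the genotypes was wider than the spread within either. The mean level fell to 0.504 of that in WT, from 59.4 ± 4.44 CPM to 29.9 ± 3.16 CPM (SD, n = 3 each). On the log2 scale this was -0.99 with an SE of 0.10 (edgeR adjusted p = 0.00235). The log2 difference was -1.07, -0.87 and -1.04 in the pairs of libraries numbered 2, 6 and 20. It was called in all 6 fits that each left out 1 library, where the highest edgeR adjusted p was 0.0168, and also without both libraries numbered 20 (-0.96, edgeR adjusted p = 0.00321). In these bulk libraries fewer Itgb8-expressing cells and less Itgb8 RNA per cell cannot be told apart.

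Itgav (ENSMUSG00000027087, alpha v chain, chromosome 2 from 83724397 to 83806916, plus strand), the only known alpha partner of beta 8, was not called. It measured 57.0, 69.1 and 67.1 CPM in WT 2, 6 and 20, and 48.5, 63.1 and 53.5 CPM in Exon2KO 2, 6 and 20. The groups overlapped, because Exon2KO 6 lay above WT 2. The log2 fold change was -0.23 (SE 0.11, edgeR adjusted p = 0.507), and -0.23 with the replicate block (adjusted p = 0.0512). It was -0.15 without Exon2KO 2 (edgeR adjusted p = 0.909) and -0.35 without Exon2KO 6 (edgeR adjusted p = 0.245). Within the same-numbered pairs Exon2KO was the lower library in each, with log2 differences of -0.23, -0.13 and -0.33.

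Itgb3 (ENSMUSG00000020689, beta 3 chain, chromosome 11 from 104608000 to 104670476, plus strand) is best known from platelets, where it pairs with alpha IIb, and pairs with alpha v elsewhere. The libraries WT 2, 6 and 20 gave 953, 793 and 1082 counts of it, and Exon2KO 2, 6 and 20 gave 1353, 1404 and 1354. Scaled to CPM, WT stood at 51.2, 43.7 and 50.8 and Exon2KO at 75.2, 72.0 and 76.2. All Exon2KO libraries lay above all WT libraries, with little spread among the Exon2KO libraries. The mean level rose 1.53-fold, from 48.5 ± 4.22 CPM to 74.5 ± 2.17 CPM (SD, n = 3 each). On the log2 scale this was 0.62 with an SE of 0.09 (edgeR adjusted p = 0.0072). The rise was 0.56, 0.72 and 0.59 in the pairs numbered 2, 6 and 20. The call was lost without Exon2KO 2 (0.60, edgeR adjusted p = 0.0585) and held in the other 5 fits that left out 1 library and without both libraries numbered 20 (0.63, edgeR adjusted p = 0.013).

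Platelet genes were measured beside Itgb3 because platelets carry the beta 3 chain. Of the list of 10 platelet and megakaryocyte genes, 7 had a count in any library, 2 passed the filter and none was called. Their summed level was 7.22 to 8.75 CPM in WT and 8.89 to 11.03 CPM in Exon2KO, without overlap. Most of this sum came from Itga2b and Gp1ba together. Itga2b, the alpha IIb chain, had 78 to 97 counts in WT and 103 to 128 in Exon2KO (log2 fold change 0.50, SE 0.22, edgeR adjusted p = 0.397, and 0.29 without both libraries numbered 20). Gp1ba, the platelet receptor chain for von Willebrand factor, had 34 to 69 counts in WT and 45 to 60 in Exon2KO (log2 change 0.22, SE 0.29, edgeR adjusted p = 0.879). Other genes of the list were at or near 0: Gp6, Gp1bb and Treml1 had 0 counts in all libraries, Pf4 had 3 counts in Exon2KO 6 and 0 in the others, Clec1b had 0 to 2, Ppbp 1 to 6, Gp9 0 to 10 and Gp5 2 to 11. In every library Itgb3 alone, at 43.7 CPM or more, exceeded the sum of the whole platelet list. The ratio of Itgb3 to these genes in platelets was not measured here. The part of platelet RNA in the Itgb3 difference was not tested.

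Where partner chains are known, their balance was examined as the ratio of their counts per gene length within a library, which does not depend on library size. Itgb8 over Itgav was 0.939, 0.831 and 0.927 in the libraries WT 2, 6 and 20, against 0.527, 0.496 and 0.567 in Exon2KO 2, 6 and 20. All WT libraries thus had a higher ratio than all Exon2KO libraries. The level of a ratio rests on the deposited gene lengths, while its difference between genotypes does not. The mean log2 ratio changed from -0.16 ± 0.10 to -0.92 ± 0.10 (SD, n = 3 each), a difference of -0.76 (SE 0.08). Itgb3 over Itgav lay the other way, from 1.63, 1.151 and 1.38 in WT to 2.82, 2.08 and 2.59 in Exon2KO, a log2 difference of 0.85 (SE 0.20). Neither ratio overlapped between the genotypes. The two-sided exact permutation p was 0.1 for each, the smallest that 3 against 3 libraries allow, and 0.3 after adjustment over the 6 ratios examined.

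**Figure D2:**
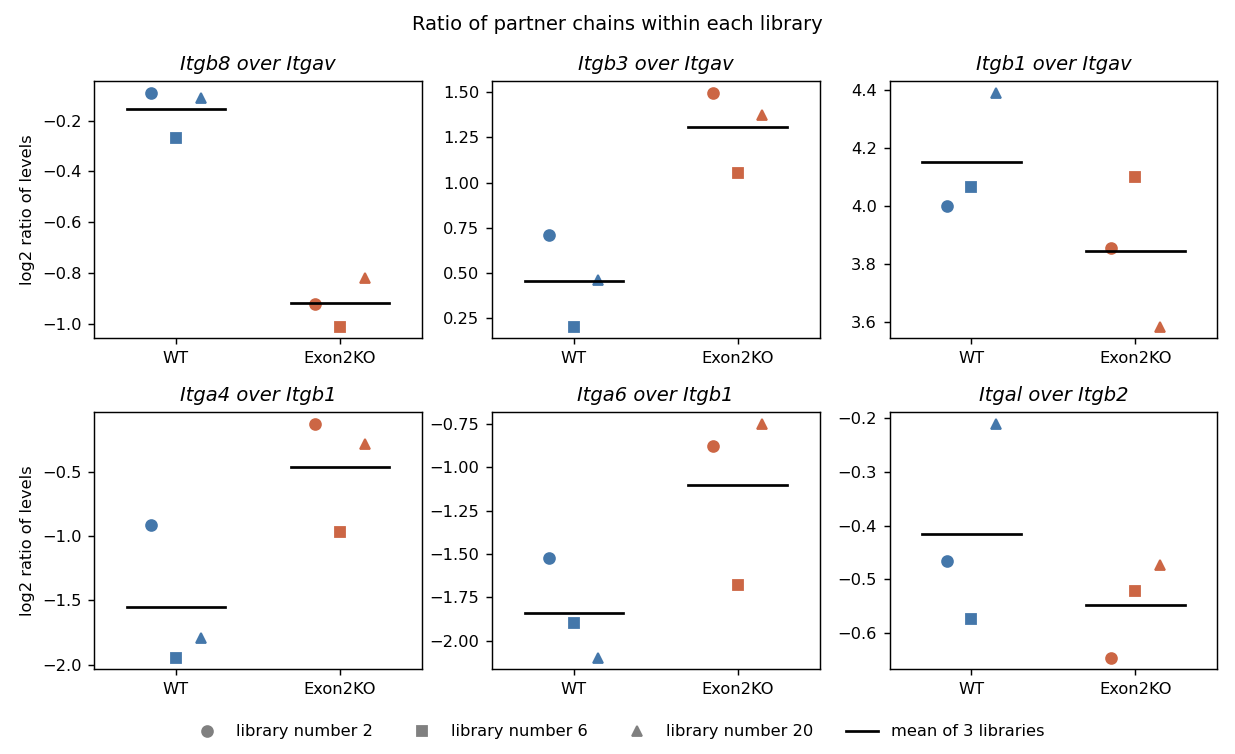
Log2 ratio of the counts per gene length of partner chains (vertical axis) in each WT and Exon2KO library, with symbols for the column number and lines for the mean of 3 libraries. Itgb8 over Itgav is lower and Itgb3 over Itgav higher in every Exon2KO library, while the other 4 ratios overlap between the genotypes.

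The region around the start site is shown for Itgb8, which fell, for its partner Itgav, which was not called, and for Itga4, which passed with the replicate block and with DESeq2 but not in the edgeR fit without a block. RefSeq promoter windows (GRCm38.p6, 250 bases before to 50 after the start) matched 4 of the 8 genes, these 3 and Itgb1, and not Itgal, Itgb2, Itgb3 and Itga6. The RefSeq start of Itgb8, at 119238276, lies inside the span that the deposited table gives the gene. Capitals mark matches, on either strand, to 7 motifs. The forkhead motif was searched as TGTTTAC and the RUNX motif as TGTGGT, while the AP-1 motif was TGANTCA and the STAT motif TTCNNNGAA. The core promoter motifs were the GC box with the letters GGGCGG, the TATA box with the letters TATAAA, and the box named by its own letters CCAAT. The window of Itgb8 is chr12:119238227-119238526 on the minus strand, that of Itgav chr2:83724147-83724446 and that of Itga4 chr2:79255176-79255475, both on the plus strand.
Itgb8: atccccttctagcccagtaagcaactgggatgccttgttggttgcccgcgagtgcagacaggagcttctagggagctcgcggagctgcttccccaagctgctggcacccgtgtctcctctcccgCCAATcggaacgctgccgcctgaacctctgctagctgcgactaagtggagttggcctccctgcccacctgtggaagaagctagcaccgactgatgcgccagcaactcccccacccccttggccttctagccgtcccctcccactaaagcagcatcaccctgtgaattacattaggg
Itgav: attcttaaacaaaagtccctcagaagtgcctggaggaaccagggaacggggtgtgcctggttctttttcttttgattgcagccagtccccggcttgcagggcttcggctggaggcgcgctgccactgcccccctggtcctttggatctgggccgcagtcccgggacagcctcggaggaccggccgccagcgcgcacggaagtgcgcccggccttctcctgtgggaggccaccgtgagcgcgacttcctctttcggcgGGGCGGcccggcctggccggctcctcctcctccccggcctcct
Itga4: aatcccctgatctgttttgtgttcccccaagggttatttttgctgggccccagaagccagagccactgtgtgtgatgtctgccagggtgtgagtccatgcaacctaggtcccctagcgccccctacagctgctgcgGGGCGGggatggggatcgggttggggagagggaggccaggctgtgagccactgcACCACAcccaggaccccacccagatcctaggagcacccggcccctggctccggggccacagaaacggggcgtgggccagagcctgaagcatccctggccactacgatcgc

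The Itgb8 window held 1 CCAAT box, with its first base at position -126 from the start site, and none of the other 6 motifs. Itgav held 1 GC box at position 8, and Itga4 held 1 GC box at position -114 and 1 RUNX match on the reverse strand at position -60. No matches overlapped. None of the 3 windows held the forkhead letters, which says only that these letters are not in these windows. Of the 32851 promoter windows of this length, 37.4% held a CCAAT box, 35.7% a GC box, 16.8% the RUNX letters, 13.6% the TATA box, 8.30% the STAT letters, 7.81% the AP-1 letters and 3.65% the forkhead letters. GC content was 60.7% for Itgb8, 67.3% for Itgav and 64.3% for Itga4, where the median over all windows was 52.7%. The windows held 13, 24 and 10 CG dinucleotides, beside a median of 7 over all windows.

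Itga4 (ENSMUSG00000027009, alpha 4 chain, chromosome 2 from 79255426 to 79333123, plus strand) guides T cells into inflamed tissue with beta 1 and into gut with beta 7. It measured 629, 391 and 528 CPM in WT 2, 6 and 20, and 836, 722 and 683 CPM in Exon2KO 2, 6 and 20. The lowest Exon2KO library lay above the highest WT library, and WT 6 lay below the other WT libraries. Means were 516 ± 120 CPM in WT and 747 ± 79.5 CPM in Exon2KO (SD, n = 3 each), and the log2 change of 0.53 (SE 0.17, edgeR adjusted p = 0.208) was not called. Blocking on the column number gave 0.55 (replicate block, SE 0.10, adjusted p = 0.00441), which passed the threshold, and DESeq2 gave 0.53 (adjusted p = 0.0168). The increase was 0.41, 0.88 and 0.37 in the pairs numbered 2, 6 and 20. No fit that left out 1 library called it, and without both libraries numbered 20 it was 0.61 (edgeR adjusted p = 0.461). Cerkl overlaps Itga4 on the opposite strand and had 278 counts over all libraries, against 71350 for Itga4.

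Itgb1 (ENSMUSG00000025809, beta 1 chain, chromosome 8 from 128685654 to 128733200, plus strand), the partner of alpha 4 and alpha 6 and of most matrix-binding alpha chains, varied more among the Exon2KO libraries, relative to its mean, than any other of the 8. It measured 347, 440 and 535 CPM in WT 2, 6 and 20, and 266, 412 and 244 CPM in Exon2KO 2, 6 and 20. The number 20 library was the highest of the WT libraries and the lowest of the Exon2KO libraries, and Exon2KO 6 lay above WT 2. The log2 fold change was -0.52 (SE 0.25, edgeR adjusted p = 0.51) and did not pass under the replicate block either (-0.53, adjusted p = 0.467). Within the pairs of libraries numbered 2, 6 and 20 the differences were -0.38, -0.09 and -1.13. Without both libraries numbered 20 the value was -0.21 (edgeR adjusted p = 0.875), a smaller difference than with them. With 1 library left out it ran from -0.36 without WT 20 (edgeR adjusted p = 0.782) to -0.80 without Exon2KO 6 (SE 0.17, edgeR adjusted p = 0.0809). Both libraries numbered 20 also had the highest sum over a list of 12 myeloid genes. It was 76.8 CPM in WT 20, 57.3 CPM in Exon2KO 20 and 22.4 to 30.7 CPM in the others. Most of the sum in both was Lyz2 (28.5 CPM in WT 20 and 23.1 CPM in Exon2KO 20), S100a9 (21.8 and 15.6 CPM) and S100a8 (13.4 and 8.55 CPM). Csf1r and Itgam were also highest in both. Cd14 and Siglech were highest in WT 20 only, and Itgax, Adgre1, Xcr1, Flt3 and Clec9a in neither. Exon2KO 6 had the highest sum over a list of 7 CD8 and NK cell genes, 50.2 CPM against 27.8 to 30.5 CPM in the others. Most of that sum was Eomes and Prf1, while Cd8b1 was lowest in Exon2KO 6. The part of either list in the Itgb1 values was not tested.

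Itga6 (ENSMUSG00000027111, alpha 6 chain, chromosome 2 from 71745616 to 71858416, plus strand), part of a laminin receptor, measured 267, 261 and 277 CPM in WT 2, 6 and 20, and 320.1, 285 and 320.5 CPM in Exon2KO 2, 6 and 20. The genotypes did not overlap, and Exon2KO 6 lay closest to WT. The log2 fold change was 0.20 (SE 0.08, edgeR adjusted p = 0.304), not called. Under the replicate block the same value of 0.20 (SE 0.06) had an adjusted p of 0.0497, just inside the threshold. Leaving out both libraries numbered 20 gave 0.19 (edgeR adjusted p = 0.472).

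Ratios over Itgb1 followed these values. Itga4 over Itgb1 was 0.530, 0.260 and 0.288 in the libraries WT 2, 6 and 20, against 0.917, 0.512 and 0.819 in Exon2KO 2, 6 and 20. It was higher in Exon2KO within each same-numbered pair, but Exon2KO 6 lay just below WT 2. The log2 difference was 1.09 (SE 0.41, two-sided exact permutation p = 0.2). For Itga6 over Itgb1 the difference was 0.74 (SE 0.34, exact permutation p = 0.2), and for Itgb1 over Itgav it was -0.31 (SE 0.19, exact permutation p = 0.3). Itgb1 over Itgav was -0.18 without Exon2KO 20, -0.19 without WT 20 and -0.06 without both libraries numbered 20, and Itga6 over Itgb1 was 0.43 without both. All 3 adjusted p-values were between 0.3 and 0.36.

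LFA-1, the main adhesion receptor of lymphocytes for ICAM proteins, showed no detected change in either chain. Itgal (ENSMUSG00000030830, alpha L chain, chromosome 7 from 127296260 to 127335138, plus strand) measured 1156, 1081 and 1243 CPM in WT 2, 6 and 20, and 1058, 1188 and 1172 CPM in Exon2KO 2, 6 and 20. Exon2KO 2 was the lowest library and WT 20 the highest, with full overlap. The log2 fold change was -0.03 (SE 0.09, edgeR adjusted p = 0.96), with positive values in 3 alternatives. Itgb2 (ENSMUSG00000000290, beta 2 chain, chromosome 10 from 77530252 to 77565708, plus strand) measured 742, 747 and 668 CPM in WT and 770, 793 and 756 CPM in Exon2KO, in the same order of numbers. The lowest Exon2KO value lay just above the highest WT value, and the log2 change of 0.10 (SE 0.08, edgeR adjusted p = 0.724) was not called. It was 0.053 without WT 20 and 0.068 without both libraries numbered 20. Itgal over Itgb2 differed by -0.13 on the log2 scale (SE 0.12, exact permutation p = 0.4), with overlap, and by -0.027 without WT 20, -0.21 without WT 6, -0.081 without Exon2KO 2 and -0.064 without both libraries numbered 20.

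**Figure D3:**
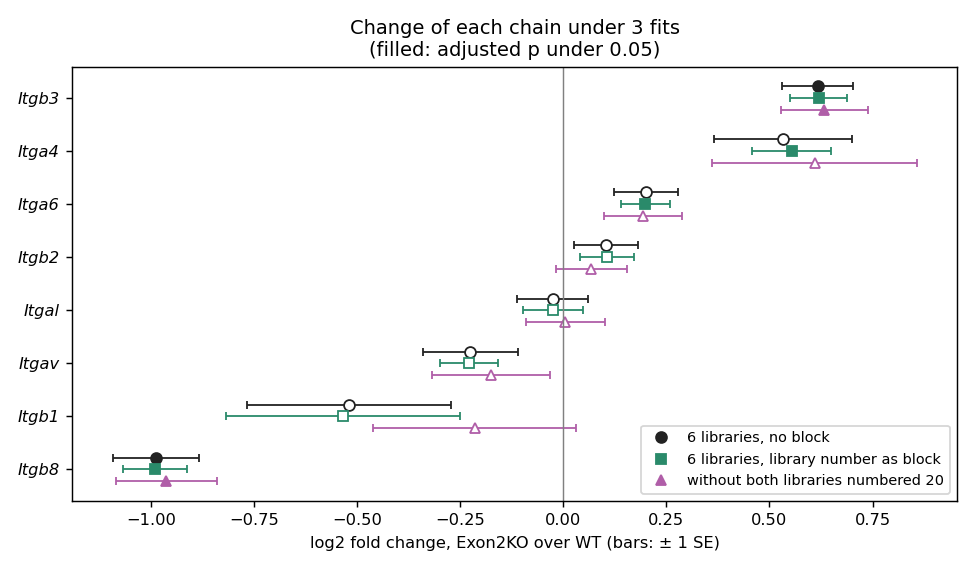
Log2 fold change of each chain, Exon2KO over WT (horizontal axis), with bars of 1 SE, from 3 edgeR fits, where filled symbols passed an adjusted p of 0.05. Itgb8 (-0.99) and Itgb3 (0.62) passed in all 3 fits, Itga4 and Itga6 only with the block, and Itgb1 moved from -0.52 to -0.21 without both libraries numbered 20.

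Levels of different chains were compared as CPKM, the CPM on the plain library total divided by the deposited gene length in kilobases. In WT the order was Itgb2 (238 ± 13.9 CPKM), Itgal (178 ± 13.5), Itgb1 (109 ± 23.4), Itga4 (37.4 ± 8.83), Itga6 (30.1 ± 1.04), Itgb3 (8.32 ± 0.771), Itgav (6.05 ± 0.586) and Itgb8 (5.43 ± 0.413, all SD, n = 3). The values of Itga4 and Itga6, and those of Itgav and Itgb8, overlapped between libraries, and the other neighbours did not. The order was the same in Exon2KO, from Itgb2 (249.9 ± 5.82 CPKM) to Itgb8 (2.67 ± 0.282 CPKM). There, Itgb1 (74.3 ± 22.003 CPKM) and Itga4 (52.7 ± 5.60 CPKM) overlapped, whereas Itga4 did not overlap Itga6 (33.7 ± 2.27 CPKM), nor Itgav (5.06 ± 0.680 CPKM) Itgb8. The places of some neighbours rest on the length used. Per kilobase of the longest coding transcript, a choice made after seeing the data, Itga6 (62.9 ± 2.18) stood above Itga4 (53.5 ± 12.6) in WT and Itgav (9.22 ± 0.893) above Itgb3 (8.48 ± 0.787, all SD, n = 3), and both of these pairs overlapped. Itgb2 also overlapped Itgal in WT, and Itgb3 overlapped Itgb8. In Exon2KO the order stayed as it was, but Itga4 (75.5 ± 8.01) then overlapped Itga6 (70.6 ± 4.76). By either length the LFA-1 chains were the highest of the 8, and alpha v with its beta 3 and beta 8 partners the lowest.

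Of the 8 genes, 3 lie on chromosome 2. Itga6, Itga4 and Itgav follow each other there on the plus strand, with 7.40 and 4.39 megabases between them. Their log2 fold changes of 0.20, 0.53 and -0.23 differed in sign.

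Genes whose log2 CPM over the 6 libraries was most like that of Itgb8 were Tiam1 (Pearson r = 0.998), a Rac exchange factor, Ccr8 (r = 0.997), a chemokine receptor of tissue Tregs, and Plxnd1 (r = 0.996), a semaphorin receptor. Among 9365 protein-coding genes with a mean of at least 5 CPM, 109 reached a correlation of 0.95 with Itgb8. Of the genes named, Plxnd1 came closest to Itgb8 in log2 fold change (-0.999, edgeR adjusted p = 0.00151), beside -0.52 for Tiam1 and -1.72 for Ccr8. Plxnd1 measured 126 ± 11.03 CPM in WT and 62.9 ± 5.63 CPM in Exon2KO (SD, n = 3 each). Those most like Itgb3 were Pde3b (r = 0.997), a phosphodiesterase, Cep97 (r = 0.997), a centrosomal protein, and Cmah (r = 0.994), an enzyme of sialic acid synthesis. A correlation of 0.95 with Itgb3 was reached by 93 genes. Cep97 was not called (log2 fold change 0.28, edgeR adjusted p = 0.0805). Cmah rose by 0.71 on the log2 scale (edgeR adjusted p = 0.00235). Pde3b rose by 1.84 (edgeR adjusted p = 0.00253), from a mean of only 4.93 CPM in WT to 17.8 CPM in Exon2KO. These correlations include the difference between genotypes, share libraries and depth, and are given as a description.

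The rest of the integrin pathway was examined in 7 lists that hold 107 genes by role. Of these, 81 passed the count filter, 2 were called higher and 6 lower in the edgeR fit, or 8 of 81 against 2.33% of all tested genes. With the replicate block, 9 were called higher and 12 lower, against 9.72%. Over these 81 genes the median change on the log2 scale was 0.0038. The lists were written with earlier results of these data known, so a direction in them is not independent evidence.

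Among 18 other integrin chains, 14 passed the filter, 2 were called lower (1.58% of all tested genes) and none higher (0.757%). Itgae, the alpha E chain of CD103, had 359, 305 and 372 CPM in WT 2, 6 and 20, and 85.4, 79.3 and 70.2 CPM in Exon2KO 2, 6 and 20, a larger fold difference than that of any of the 8 chains (log2 fold change -2.14, SE 0.11, edgeR adjusted p = 5.32e-05). Its reads are uncertain where Haspin overlaps it on the opposite strand (3403 counts over all libraries, against 24490 for Itgae). Itgb7, the beta chain shared by Itgae and Itga4, had 978 ± 67.7 CPM in WT and 980 ± 69.2 CPM in Exon2KO (SD, n = 3 each; edgeR adjusted p = 0.996). Itga7, a laminin receptor chain, was much scarcer, at 8.27, 8.04 and 14.9 CPM in WT and 3.67, 4.41 and 4.78 CPM in Exon2KO (log2 fold change -1.28, SE 0.27, edgeR adjusted p = 0.0429). Its call was lost in each of the 6 fits that left out 1 library, without both libraries numbered 20 (edgeR adjusted p = 0.0567) and with limma-voom (adjusted p = 0.0919). Itga5, the fibronectin receptor chain, measured 15.04 ± 0.973 CPM in WT and 18.5 ± 2.72 CPM in Exon2KO (SD, n = 3 each) and had a log2 change of 0.30 (SE 0.14, edgeR adjusted p = 0.476), which was 0.17 without Exon2KO 20 and 0.12 without both libraries numbered 20.

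None of the 16 tested inside-out activators was called by edgeR without the block, while 3 had an unadjusted p under 0.05, DESeq2 called 1 and limma-voom 0. Over all tested genes, 12.1% had an unadjusted p under 0.05, DESeq2 called 4.47% and limma-voom 1.94%. Tln1, the talin that opens integrins in T cells, measured 1085 ± 68.6 CPM in WT and 1131 ± 33.1 CPM in Exon2KO (SD, n = 3 each; edgeR adjusted p = 0.878). Rapgef6, an exchange factor of Rap GTPases, had a log2 change of 0.20 (SE 0.11, edgeR adjusted p = 0.568), which was 0.12 without WT 20. With the replicate block 2 genes of this list were called higher (3.93% of all tested genes), Stk4 and Cyth1, and 1 lower (5.79%), Tln2. No integrin inhibitor of 12 tested was called by edgeR without the block, while 2 had an unadjusted p under 0.05 (12.1% of all tested genes), DESeq2 called 1 (4.47%) and limma-voom 0 (1.94%). Flna, the actin cross-linker filamin A, had a log2 fold change of 0.25 (edgeR adjusted p = 0.63), which was 0.098 without WT 6 and 0.40 without WT 20. Sipa1, which switches Rap GTPases off, had a log2 change of 0.05 (edgeR adjusted p = 0.938). With the block 2 were called higher, Flna (0.27, adjusted p = 0.0379) and Rasa3, and 1 lower, Tns1, against the same shares of all tested genes.

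Of 15 tested adhesion adaptors and kinases, 1 rose (0.757% of all tested genes) and 1 fell (1.58%). Actn1, the actin cross-linker alpha actinin that binds beta chain tails, rose from 199, 179 and 179 CPM in WT 2, 6 and 20 to 315, 284 and 325 CPM in Exon2KO 2, 6 and 20 (log2 fold change 0.73, SE 0.08, edgeR adjusted p = 0.00274). The kinase gene Src fell from 51.7, 45.2 and 36.9 CPM in WT to 27.3, 23.1 and 23.9 CPM in Exon2KO (log2 fold change -0.85, SE 0.13, edgeR adjusted p = 0.0128). The groups did not overlap for either gene, and Src was no longer called in 3 of the 6 fits leaving out 1 library (without WT 2, WT 6 or Exon2KO 2, highest edgeR adjusted p = 0.0646). Of the genes not called, Fyn, a kinase of the same family as Src, and Vasp, an actin regulator, had the highest levels. Fyn was at 638 ± 18.8 CPM in WT and 653 ± 48.1 CPM in Exon2KO (SD, n = 3 each), and Vasp at 492 ± 27.9 and 499 ± 9.68 CPM.

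**Figure D4:**
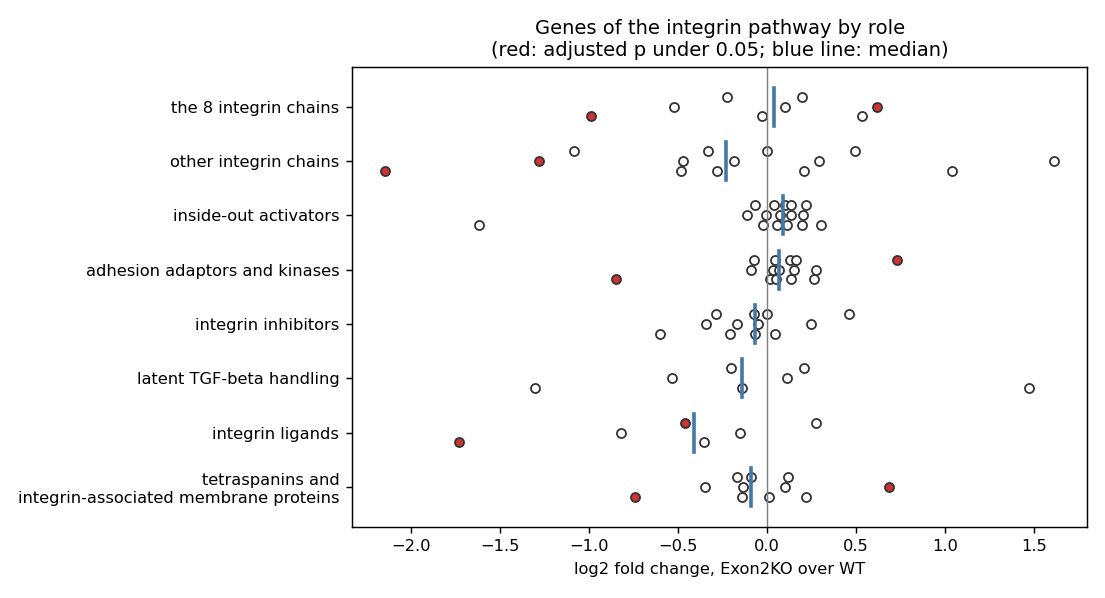
Log2 fold change, Exon2KO over WT (horizontal axis), of every tested gene of the 8 chains and of 7 pathway lists, where each circle is a gene, red circles passed an adjusted p of 0.05 and blue lines give list medians. Red circles are 2 of the 8 chains and 8 of the 81 other genes, and Itgae (-2.14) lies lowest.

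Genes that hold or release latent TGF-beta, the substrate of the alpha v beta 8 integrin, were not called by edgeR without the block (0 of 7 tested). Of these 7, 3 had an unadjusted p under 0.05 (12.1% of all tested genes), DESeq2 called 1 (4.47%) and limma-voom 0 (1.94%). Lrrc32, which encodes GARP, the anchor of latent TGF-beta on Tregs, measured 343, 290 and 324 CPM in WT 2, 6 and 20, and 215, 175 and 272 CPM in Exon2KO 2, 6 and 20. All Exon2KO libraries were below all WT libraries. Its log2 fold change was -0.53 (SE 0.15, edgeR adjusted p = 0.162), and it passed with the replicate block (-0.55, adjusted p = 0.00257), with DESeq2 (-0.53, adjusted p = 0.0102), without Exon2KO 20 (-0.71, edgeR adjusted p = 0.0135) and without both libraries numbered 20 (-0.70, edgeR adjusted p = 0.0183). Tgfb1, the main TGF-beta gene of T cells, measured 271 ± 17.5 CPM in WT and 236 ± 21.8 CPM in Exon2KO (SD, n = 3 each; edgeR adjusted p = 0.419, and 0.0482 with the block). With the block 3 of the 7 were called lower, Lrrc32, Tgfb1 and Ltbp4, and 1 higher, Furin, where the block called 5.79% of all tested genes lower and 3.93% higher.

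Of 17 integrin ligand genes, 6 passed the filter and 2 of them fell, beside 1.58% of all tested genes. Lamc1, a laminin chain, fell from 77.8, 72.2 and 107 CPM in WT 2, 6 and 20 to 26.3, 27.8 and 23.6 CPM in Exon2KO 2, 6 and 20 (log2 fold change -1.73, SE 0.15, edgeR adjusted p = 0.00151). Icam1, the ligand of LFA-1, fell from 94.6, 85.6 and 89.9 CPM to 67.6, 69.5 and 59.1 CPM (log2 fold change -0.46, SE 0.09, edgeR adjusted p = 0.0268). Neither overlapped. Icam1 was no longer called in 5 of the 6 fits leaving out 1 library, all but the one without Exon2KO 6, and without both libraries numbered 20 (edgeR adjusted p = 0.066). Icam2, another LFA-1 ligand, had a log2 change of 0.27 (SE 0.11, edgeR adjusted p = 0.356, and 0.0254 with the block). With the block 1 ligand gene, Icam2, was called higher (3.93% of all tested genes), and 2 lower (5.79%), Lamc1 and Icam1. Vcam1, the ligand of alpha 4 beta 1, was at 0.731 to 4.52 CPM and was not called (edgeR adjusted p = 0.629).

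Among 11 tested tetraspanins and other membrane proteins that associate with integrins, 1 rose and 1 fell, where 0.757% of all tested genes were called higher and 1.58% lower. Cd9 rose from 24.4, 36.4 and 29.0 CPM in WT 2, 6 and 20 to 48.5, 50.9 and 45.1 CPM in Exon2KO 2, 6 and 20 (log2 fold change 0.69, SE 0.14, edgeR adjusted p = 0.0369). Cd81 fell from 58.5, 60.9 and 64.7 CPM to 30.7, 36.3 and 43.3 CPM (log2 fold change -0.74, SE 0.12, edgeR adjusted p = 0.015). Both encode tetraspanins that bind integrins, and neither overlapped between genotypes. Cd9 was no longer called in 4 of the 6 fits leaving out 1 library (without WT 2, WT 20, Exon2KO 2 or Exon2KO 6, highest edgeR adjusted p = 0.171) and without both libraries numbered 20 (0.0816), and Cd81 in 3 of the 6 (without WT 2, WT 6 or Exon2KO 2, highest 0.0652). Noncoding genes overlap both on the opposite strand, so their reads are uncertain there: Gm28809 had 586 counts over all libraries against 4400 for Cd9, and R74862 had 707 against 5602 for Cd81. Cd53 (edgeR adjusted p = 0.82) and Cd82 (log2 fold change -0.35, edgeR adjusted p = 0.133, 0.00865 with the block, 0.0194 with no count filter, and 0.0355 with DESeq2) had the highest levels of those not called. With the block 2 of the 11 were called higher, Cd9 and Cd47 (0.23, adjusted p = 0.0254), and 2 lower, Cd81 and Cd82, beside 3.93% and 5.79% of all tested genes.

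Apart from Pecam1, markers of other cells were scarce but differed between some libraries. The summed B cell list was 41.0 to 46.6 CPM in WT and 34.1 to 36.0 CPM in Exon2KO, without overlap, and none of its 8 genes was called. CD8 and NK cell markers were at 27.8 to 30.5 CPM in WT and at 29.1, 50.2 and 29.4 CPM in Exon2KO 2, 6 and 20. In Exon2KO 6, Eomes stood at 22.5 CPM and Prf1 at 15.2 CPM. The other libraries had 4.55 to 7.27 CPM of Eomes and 6.30 to 8.54 CPM of Prf1, and neither gene was called. Cd8b1 went the other way, at 7.18 CPM in Exon2KO 6 and 8.81 to 12.3 CPM in the others. In Exon2KO 6, Klrk1 was highest at 2.00 CPM, while Cd8a, Ncr1 and Klrb1c lay within the range of the other libraries. Erythroid markers were at 6.48 to 18.5 CPM in WT and 4.16 to 14.9 CPM in Exon2KO. In the stromal and endothelial list, the endothelial genes Cdh5 and Kdr were at 0 to 0.308 and 0 to 0.338 CPM. The list summed to 165 to 192 CPM in WT and 189 to 225 CPM in Exon2KO, nearly all of it Pecam1. Of its genes, Col3a1, Pdpn and Ccl19 had 0 counts in all libraries. Its other collagen genes lay the other way, Col1a1 at a mean of 2.03 CPM in WT and 0.883 CPM in Exon2KO (log2 change -1.20, edgeR adjusted p = 0.377) and Col1a2 at 0.892 and 0.297 CPM (log2 change -1.54, edgeR adjusted p = 0.419), and neither was called. The part of such cells in the results above was not tested.

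The authors' deposited table holds an adjusted p for 24985 genes, 638 of them under 0.05, and 3 of the 8 chains are among these. In the authors' deposited table Itgb8 has a log2 fold change of -0.99 (adjusted p = 2.26e-11), Itgb3 one of 0.62 (adjusted p = 4.72e-06) and Itga4 one of 0.54 (adjusted p = 0.0126).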

How the data were processed

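RNA of 3 WT and 3 Exon2KO Treg libraries was sequenced after NEBNext Ultra library preparation, per the labels' protocols, which do not state strandedness. The submitters' processing notes name HISAT2 2.0.5, StringTie 1.3.3b, featureCounts 1.5.0-p3, DESeq2 1.16.1 and the mm10 build, without roles. The authors deposited whole-number counts per gene and for their comparison a mean scaled count signal per genotype (not used here), a log2 fold change and p-values, per the file headers. Another 6 columns of values per library were not used. Levels per length, planned from FPKM, were computed from the counts and the deposited gene length.

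Counts were tested with edgeR 4.0.16 (TMM, filterByExpr, robust quasi-likelihood test, two-sided, Benjamini-Hochberg over 14919 genes, called at an adjusted p under 0.05) in R 4.3.3, with no covariate. SE is the log2 fold change divided by the root of F. Partner ratios used an exact permutation test (scipy 1.17.1), adjusted over 6 ratios. Alternatives were other count filters and scalings, DESeq2 1.42.0, limma-voom 3.58.1, leaving out each library, another gene length for levels, and a replicate block on the column number. Deviations of same-numbered libraries from their genotype means correlated across genes at r = 0.271, 0.369 and 0.494 for numbers 2, 6 and 20. Such correlations were not computed for libraries of different numbers, so they do not establish that the numbers mark pairs. Column numbers do not occur in the sample titles, so columns were assigned to genotypes only. The edgeR, DESeq2 and limma-voom fits without the block were tested on simulated data.

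The genes named were the 8 chains, all called genes of each list, the 2 most abundant genes not called in each list, and for each called chain the 3 protein-coding genes of at least 5 CPM with the most similar profile. Genes called only with the replicate block, Gp1ba, Col1a1, Col1a2, Cdh5 and Kdr were named after their values were seen. The same holds for single genes of the myeloid list and of the CD8 and NK cell list. Members and lists were chosen with earlier results of these data known. A count of 3, the limit that a count of 0 allows, corresponds to 0.141 to 0.169 CPM and covers counting error only.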

Additional observations from a re-analysis of the deposited data

How the results depend on the processing

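Itgb8 stayed lower and called in all 14 alternatives run for single genes, and Itgb3 stayed higher in all 14 and lost its call without Exon2KO 2. The number of the 8 chains called was 2, and was 4 with the replicate block, 3 with DESeq2 and 1 to 2 when 1 library was left out. For the pathway lists, the 2 genes called higher became 4 with DESeq2, 9 with the replicate block, 1 without both libraries numbered 20 and 1 to 2 when 1 library was left out. The 6 called lower became 9 with DESeq2, 12 with the replicate block, and 2 to 6 when 1 library was left out. Leaving out both libraries numbered 20 was chosen after seeing the data.

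Small log2 fold changes changed sign. Itgal was 0.0053 without both libraries numbered 20 and -0.072 to 0.026 when 1 library was left out. Itgb7 was -0.0037 with no count filter, -0.0063 with at least 10 counts in every library, -0.012 with upper-quartile scaling, -0.011 without both libraries numbered 20 and -0.052 to 0.044 when 1 library was left out. With 1 library left out, Fyn ranged from -0.032 to 0.079, Vasp from -0.026 to 0.059, Sipa1 from -0.044 to 0.13 and Cd53 from -0.0010 to 0.16. The cause was not tested. Fits with a library left out have fewer samples. Per kilobase of the longest coding transcript, chosen after seeing the data, the rank in WT was 4 for Itga6, 5 for Itga4, 6 for Itgav and 7 for Itgb3. The lowest count of any of the 8 chains was 474, in Itgb8.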
